A study of Mus musculus with 16 samples.

Results

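The nuclear-encoded subunits of the 5 oxidative phosphorylation complexes were followed in 16 libraries from mouse prostate tumours. Members were the protein-coding genes whose symbols begin with Nduf followed by a, b, c, s or v (without the Ndufaf assembly factors), the genes Sdha to Sdhd, the Uqcr genes, Cyc1, the Cox4 to Cox8 genes and the Atp5 genes, with no pseudogene. They came to 87 gene IDs under 86 symbols, of 55414 gene IDs in the count table (21876 of them protein-coding). By symbol, 38 belonged to complex I, 4 to complex II, 9 to complex III, 18 to complex IV and 18 to complex V. Another 13 symbol matches were left out as pseudogenes or non-coding genes.

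The tumours grew from B6MyC-CaP cells, 1 prostate cancer line taken from Hi-MYC transgenic mice on a C57BL/6 background, placed under the skin of male C57BL/6 mice aged 6 weeks. The Vehicle group was fed freely. The ENZ group was fed freely and received enzalutamide, an androgen receptor antagonist, at 20 mg/kg once daily by gavage. The ADF group was on alternate-day fasting, 24 hours without food followed by 24 hours of free feeding, and the ADF+ENZ group received both. Each group had 4 libraries of total tumour RNA. The tumours carry numbers in the labels, with no statement that each grew in a separate mouse, so that p-values reflect variation among these 16 libraries, which may be partly technical. Whether collection fell in a fasting or a feeding period was also unstated.

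Oxidative phosphorylation passes electrons from NADH through complex I, and from succinate through complex II, to quinone, then through complex III and cytochrome c to complex IV, where oxygen is reduced. Complexes I, III and IV pump protons across the inner mitochondrial membrane, and complex V, the ATP synthase, uses the proton gradient to make ATP. The hydrophobic cores of complexes I, III, IV and V include proteins encoded by mitochondrial DNA, whereas the subunits described here are transcribed in the nucleus and imported.

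Gene counts ran from 10072489 to 25505655 per library. Of all reads, those assigned to no annotated feature made up 30.3% to 36.7% in the 4 ADF libraries, and 21.2% to 27.9% in the other 12. The highest percentage was in ADF replicate 4 and the lowest in ADF+ENZ replicate 3. Levels are given as CPM, library-scaled read counts after TMM normalisation. Of 15 skeletal muscle markers, 10 passed the filter, and of 10 fat cell markers, 2 passed. Whether or not they passed, Ckm reached at most 1.71 CPM, Acta1 7.40 and Myh4 9.01. Ttn stood at 7.43 to 61.2 CPM and Eno3 at 54.8 to 122. Of the fat cell markers, Adipoq reached at most 0.601 CPM, and Fabp4 stood at 1.53 to 21.7. Krt8, an epithelial keratin, stood at 206 to 661 CPM. Krt5, a basal keratin, reached at most 0.0552 CPM, and Pbsn, which encodes the prostate secretory protein probasin, had no count in any library. In bulk tumour RNA, fewer cells of a type and less RNA per cell cannot be told apart.

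Of the 87 members, 81 had enough counts to be tested among 18946 genes, and 6 did not. The latter include Cox6a2, Cox6b2, Cox8b and Cox7b2, which encode isoforms known from muscle, heart or testis. Cox6a2 had 65 counts over all libraries, Cox6b2 had 81, Cox8b had 28 and Cox7b2 had 10, of which 8 were in ADF replicate 2. Cox8c and a second gene ID carrying the symbol Atp5o (ENSMUSG00000116933) had none. Members took 0.468% ± 0.0167 (SD, n = 4) of gene counts in Vehicle, 0.508% ± 0.0161 in ENZ, 0.425% ± 0.0186 with ADF and 0.489% ± 0.0195 with ADF+ENZ. The biological coefficient of variation, edgeR's estimate of spread between replicates, had a median of 10.5% for members against 15.1% for all genes tested. By mean level the median member stood at percentile 71.0 of genes tested, and the spread of genes of like level was not compared.

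Between genes, levels were compared per kilobase of transcript (CPM/kb, mean of all libraries). In complex I, the accessory subunits Ndufa7 (137 CPM/kb) and Ndufa6 (111) were highest and Ndufa13 (9.0) lowest. The Ndufa13 value rests on a 1251-base transcript that shares 25.6% of its 75-base windows with the gene Tssk6, and is uncertain. In complex II the membrane anchor Sdhc stood at 78.8 CPM/kb and the iron-sulfur subunit Sdhb at 52.1. Uqcrh, the hinge protein, at 103 CPM/kb, and Uqcrq, a small subunit of the membrane part, at 98.3, led complex III. Cox6b1 (251 CPM/kb) and Cox6c (215) led complex IV. In complex V the catalytic beta subunit Atp5b reached 308 CPM/kb and the alpha subunit Atp5a1 169, whereas Atp5s, a coupling factor that is not a stable subunit, had 3.50. Median levels per length were 35.1 CPM/kb for complex I, 48.6 for II, 59.1 for III, 114.7 for IV and 73.6 for V.

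Genes of respiratory subunits often share short promoter elements, among them those bound by NRF1, by the ETS factor GABP and by YY1. RefSeq promoter windows (GRCm38.p6, 250 bases before to 50 after the start site) were at hand for 69 of the 86 member symbols. They were searched on both strands for GCGCATGC (NRF1 core), CCGGAAGT (ETS/GABP core) and AAGATGGC (YY1 core). The NRF1 core was present in 10 of 69 members (14.5%) and in 3.05% of 27025 genes, the YY1 core in 10 members (14.5%) and in 3.19% of genes, and the ETS/GABP core in 5 members (7.25%) and in 4.31% of genes. At least 1 element was present in 24 members (34.8%) and in 9.91% of genes. The NRF1 core was found on both strands, overlapping as 1 longer palindrome, in Atp5g2, Atp5k, Cox6a1, Ndufa11 and Uqcrc1. The windows below are shown because they hold 1 element each in genes that differed between groups below. Capitals mark the element, which is read on the opposite strand in all but Ndufb8, and the coordinates are chr15:82354242-82354541 (minus strand) for Ndufa6, chr4:140961021-140961320 (plus strand) for Sdhb, chr4:116075021-116075320 (minus strand) for Uqcrh and chr19:44555393-44555692 (minus strand) for Ndufb8.
Ndufa6: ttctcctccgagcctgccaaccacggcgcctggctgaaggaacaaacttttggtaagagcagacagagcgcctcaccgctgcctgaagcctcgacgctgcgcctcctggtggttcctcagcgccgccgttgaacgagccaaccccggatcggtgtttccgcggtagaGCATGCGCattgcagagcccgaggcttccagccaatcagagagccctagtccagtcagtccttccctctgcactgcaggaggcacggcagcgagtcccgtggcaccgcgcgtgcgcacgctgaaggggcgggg
Sdhb: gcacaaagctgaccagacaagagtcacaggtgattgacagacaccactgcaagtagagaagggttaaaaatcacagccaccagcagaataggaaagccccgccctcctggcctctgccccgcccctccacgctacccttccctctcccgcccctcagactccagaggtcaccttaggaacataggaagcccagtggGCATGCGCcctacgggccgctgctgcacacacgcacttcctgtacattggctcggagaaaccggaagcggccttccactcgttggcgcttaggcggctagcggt
Uqcrh: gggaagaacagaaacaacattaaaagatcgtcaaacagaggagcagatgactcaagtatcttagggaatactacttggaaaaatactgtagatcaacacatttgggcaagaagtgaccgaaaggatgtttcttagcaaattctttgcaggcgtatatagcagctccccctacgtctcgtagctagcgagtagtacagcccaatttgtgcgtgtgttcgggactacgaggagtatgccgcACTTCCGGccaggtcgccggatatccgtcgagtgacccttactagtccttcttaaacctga
Ndufb8: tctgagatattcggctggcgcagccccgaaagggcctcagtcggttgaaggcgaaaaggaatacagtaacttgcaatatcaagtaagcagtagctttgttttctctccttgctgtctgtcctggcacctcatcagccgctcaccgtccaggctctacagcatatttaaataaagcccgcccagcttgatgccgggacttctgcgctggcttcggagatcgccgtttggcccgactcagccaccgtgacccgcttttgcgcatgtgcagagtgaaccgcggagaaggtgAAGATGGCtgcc
In Ndufa6 and Sdhb the NRF1 core lay 83 and 54 bases before the start site, in Uqcrh the ETS/GABP core lay 11 bases before it, and in Ndufb8 the YY1 core lay 39 bases after it. A match describes these letters in this window and is not a measured binding site.

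Summed over members, transcripts were lowest in ADF. By mean, ADF+ENZ was highest on the TMM scale, whereas ENZ was highest as the unscaled share of gene counts given above. The 87 members together had 4644, 5148, 4810.0 and 4469 CPM in the Vehicle libraries, 4721, 4850.0, 5222 and 5088 in ENZ, 4322, 4241, 3999.9 and 3794 with ADF and 5176, 4862, 5560.4 and 4994 with ADF+ENZ. All 4 ADF libraries lay below each of the other 12, whereas the Vehicle, ENZ and ADF+ENZ ranges overlapped. The same order of ADF below both fed groups and ADF+ENZ held for each complex by its mean. Complex I summed to 1285 ± 79.8 CPM (SD, n = 4) in Vehicle, 1340.0 ± 30.6 in ENZ, 1126 ± 64.6 with ADF and 1378 ± 77.6 with ADF+ENZ. Complex V summed to 1778 ± 101, 1857 ± 169, 1498 ± 77.2 and 1943 ± 148 CPM in the same order. ADF averaged 253 ± 20.7 CPM for complex II, 389 ± 34.0 for III and 823 ± 47.7 for IV, against 307 ± 19.0, 448 ± 35.6 and 950.0 ± 64.8 in Vehicle. The ADF and Vehicle ranges did not overlap in complexes I, II, III, IV or V, and the ADF and ADF+ENZ ranges did not overlap either. These sums carry no test.

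**Figure D1:**
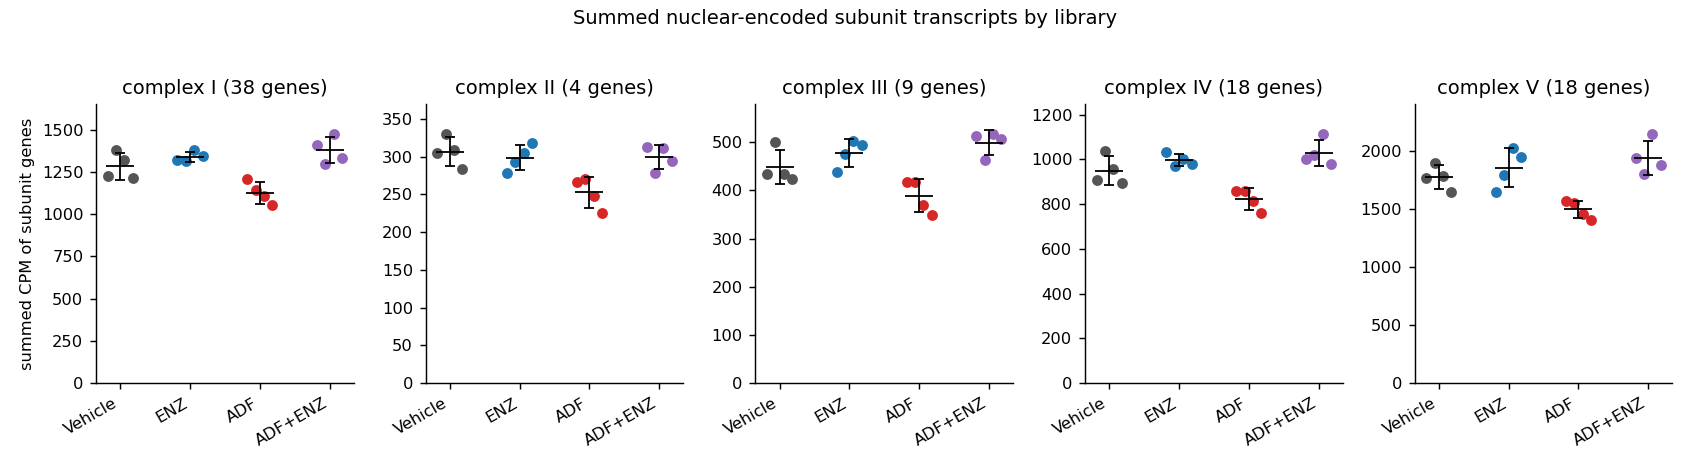
Summed CPM of the subunit genes of each complex (y axis, from 0) in each library (points) by group (x axis), with the mean and SD of 4 libraries as black bars. The red ADF points lie below the grey Vehicle points and the purple ADF+ENZ points in each panel, for example at 1052 to 1206 CPM in complex I.

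How fasting alone moved the subunits was addressed by ADF against Vehicle, in which 14 of 81 tested members fell and none rose. Over all genes tested, 4.96% fell and 4.05% rose. The calls were spread over the complexes, with 7 of 38 in complex I, 1 of 4 in II, 2 of 9 in III, 2 of 13 in IV and 2 of 17 in V. The log2 change was negative in 72 of 81 members, with a median of -0.21 against 0.01 for all genes, and by complex the medians were -0.16, -0.27, -0.20, -0.26 and -0.15 from I to V. An unadjusted p under 0.05 was reached by 35 members. In 23 members the ADF range lay wholly below the Vehicle range, which held for 8.55% of all genes.

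Uqcrc2, a core subunit of complex III, had 55.3, 59.9, 63.3 and 57.2 CPM in Vehicle and 47.6, 49.2, 44.1 and 40.6 in ADF. Every ADF library lay below every Vehicle library, and the log2 change was -0.38 (SE 0.078, adjusted p = 0.00704). Cox6b1, a complex IV subunit on the intermembrane-space side, had 91.7, 108, 96.3 and 97.8 CPM in Vehicle and 75.1, 84.2, 71.9 and 64.2 in ADF. Its ranges did not overlap either, with a log2 change of -0.41 (SE 0.086, adjusted p = 0.00724). These 2 genes passed the threshold in each of the 8 fits that left out 1 Vehicle or ADF library, and no other member did.

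The calls in complex I included Ndufa4l2, described further on, and accessory subunits of both arms. Ndufa9, an accessory subunit of the matrix arm, fell, at -0.36 (SE 0.092, adjusted p = 0.0236). Ndufa12, also in the matrix arm, changed by -0.33 (adjusted p = 0.0492). Ndufv3, an accessory subunit beside the NADH site, changed by -0.45 (adjusted p = 0.0443). Ndufb3 changed by -0.40 (adjusted p = 0.0316) and Ndufb4 by -0.38 (adjusted p = 0.044), both in the membrane arm. The ADF and Vehicle ranges overlapped for Ndufv3 and Ndufb4, and for Atp5d, named below. In complex II Sdhc had 69.8, 73.1, 72.7 and 64.4 CPM in Vehicle and 57.6, 61.4, 54.7 and 46.2 in ADF, all lower in ADF, at -0.35 (SE 0.085, adjusted p = 0.018). The flavoprotein Sdha had a log2 difference of -0.27 that missed the threshold (adjusted p = 0.0593).

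Among the remaining calls, Uqcrq changed by -0.34 (adjusted p = 0.0242), Cox7c, a small subunit of complex IV, by -0.33 (adjusted p = 0.027), and the gamma and delta subunits of the ATP synthase stalk, Atp5c1 and Atp5d, by -0.32 (adjusted p = 0.0314) and -0.30 (adjusted p = 0.0456). Atp5a1 had 432, 451, 448 and 399.8 CPM in Vehicle and 363, 346, 347 and 333 in ADF, ranges that did not overlap, with a log2 difference of -0.32 and an adjusted p of 0.0591. Within complex V, 2 of 5 genes of the catalytic head and central stalk were called, with a median of -0.30. None of the 4 peripheral stalk genes and none of the 3 c-ring genes was called, with medians of -0.22 and -0.05.

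Skeletal muscle markers, 10 of 15 tested with 1 called (Eno3, lower), summed to 125 to 184 CPM in Vehicle and 87.9 to 124 in ADF. Most of that sum was Eno3, with a mean of 106 CPM in Vehicle and 67.9 in ADF. Ttn averaged 24.1 ± 25.1 CPM (SD, n = 4) in Vehicle and 37.8 ± 8.13 in ADF. Of the 10 log2 changes, 2 were positive and 8 negative. With the muscle level as a covariate 12 members were called. Among markers of other cells, 1 of 9 macrophage genes (Cd68), 1 of 8 fibroblast genes (Dcn), 1 of 4 epithelial genes (Krt19) and 1 of 4 prostate luminal genes (Fkbp5) also fell in ADF. Their sums overlapped between ADF and Vehicle, and their part in the result was not tested. The ADF result moved with the percentage of reads in no feature. Across the 16 libraries the group with most such reads was ADF, without overlap with the others, so that this percentage and fasting without enzalutamide cannot be told apart here. With the percentage as a covariate, no member was called in ADF against Vehicle, 43 of 81 differences were positive and the median was 0.01, while the calls over all genes came to 6. Without ADF replicate 4, 2 members were called. Without Vehicle replicate 2, Vehicle replicate 3 or ADF replicate 3, the count was 3, 6 or 5.

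**Figure D2:**
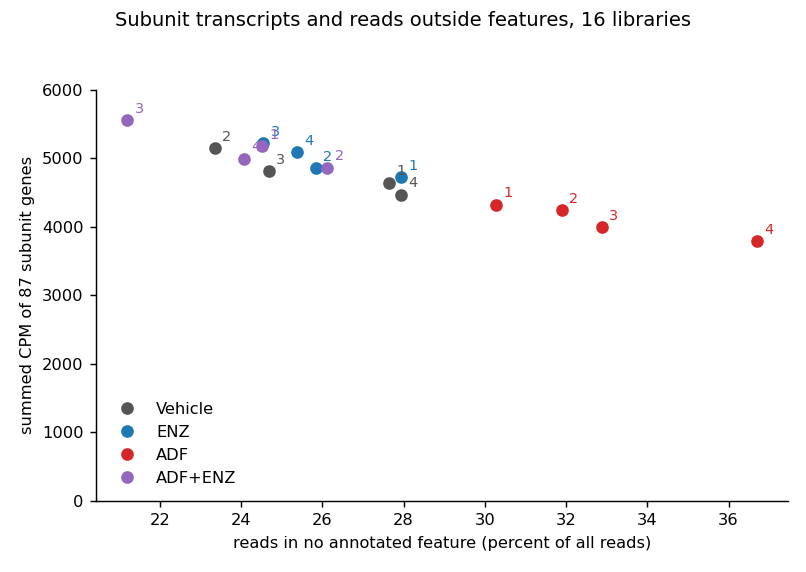
Summed CPM of the 87 members (y axis, from 0) against the percentage of all reads in no annotated feature (x axis) for 16 libraries, coloured by group and numbered by replicate. The ADF points lie at the right, from 30.3% to 36.7%, and below all others, from 3794 to 4322 CPM, and ADF+ENZ replicate 3 lies at the upper left.

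Enzalutamide on free feeding, compared as ENZ against Vehicle, left most subunits without a call: 3 of 81 members rose and 2 fell. Over all genes tested, 1.81% rose and 3.62% fell. Differences were positive in 59 members, with a median log2 of 0.09, and 21 members had an unadjusted p under 0.05. Atp5k, subunit e of the ATP synthase membrane part, had 15.3, 18.2, 11.4 and 13.4 CPM in Vehicle and 19.7, 20.3, 20.4 and 21.7 in ENZ, all higher in ENZ, at 0.50 (SE 0.12, adjusted p = 0.023). Ndufb8, in the membrane arm of complex I, had 41.4, 43.6, 40.3 and 37.3 CPM in Vehicle and 47.8, 54.2, 47.4 and 50.7 in ENZ, again without overlap, at 0.30 (SE 0.082, adjusted p = 0.0368). Ndufc1, a small membrane-arm subunit, changed by 0.38 (adjusted p = 0.0464). The members that fell were Cox4i2 and Ndufa4l2.

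Markers of other cells moved in the same comparison. None of 10 tested skeletal muscle genes was called, but all 10 log2 changes were negative, with a median of -0.68. An unadjusted p under 0.05 by edgeR was reached by 3 of them. The summed level of the list was 125 to 184 CPM in Vehicle and 86.5 to 118 in ENZ, without overlap. Most of that sum was Eno3, at means of 106 and 81.3 CPM. Calls with the muscle level as a covariate are counted further on. Of 8 endothelial genes, Tek and Emcn rose, with list sums of 296 to 512 CPM in Vehicle and 314 to 581 in ENZ. Cd68 (of 9 macrophage genes), Krt19 (of 4 epithelial genes) and Fkbp5 (of 4 prostate luminal genes) fell. None of 8 fibroblast genes was called, and their sum was 11312 to 13158 CPM in Vehicle and 9657 to 10718 in ENZ, without overlap. The part of these cells in the result was not tested.

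Other members with large differences in ENZ against Vehicle missed the threshold. Sdhb differed by 0.30 (adjusted p = 0.058) and Sdha, in the same complex, by -0.23 (adjusted p = 0.144). Cyc1, cytochrome c1 of complex III, differed by 0.23 (adjusted p = 0.217) and Uqcrq by 0.23 (adjusted p = 0.137). Cox5a differed by 0.32 (adjusted p = 0.0664) and Atp5j2, subunit f, by 0.36 (adjusted p = 0.0565). The count of 5 calls was sensitive to single libraries, being 1 without Vehicle replicate 3, ENZ replicate 3 or ENZ replicate 4, and 2 without Vehicle replicate 4 or ENZ replicate 2. Cox4i2 was the call present in all 8 such fits.

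Enzalutamide on top of fasting, compared as ADF+ENZ against ADF, gave the most calls. In ADF+ENZ 35 of 81 members were higher and none lower, where 8.72% of all genes tested were higher and 7.54% lower. The called share was 11 of 38 in complex I, 2 of 4 in II, 6 of 9 in III, 8 of 13 in IV and 8 of 17 in V. Differences were positive in 76 of 81 members, the median log2 was 0.29 against -0.02 for all genes, and 54 members had an unadjusted p under 0.05. Median differences were 0.26, 0.27, 0.36, 0.31 and 0.32 for complexes I to V. In 37 members all ADF+ENZ libraries lay above all ADF libraries, against 10.6% of all genes. This comparison and ADF against Vehicle share the 4 ADF libraries. Of the marker lists for other cells, the single call was Krt19, lower in ADF+ENZ. Its mean was 0.545 CPM in ADF and 0.0204 in ADF+ENZ, near the floor. The other 3 epithelial genes tested were not called.

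In complex I, 4 of the 7 nuclear-encoded core subunits and 7 of 31 accessory subunits were called. Ndufs8, an iron-sulfur core subunit, had 25.7, 23.1, 27.6 and 27.7 CPM in ADF and 37.0, 37.5, 48.6 and 36.3 in ADF+ENZ, higher throughout and highest in ADF+ENZ replicate 3, at 0.61 (SE 0.10, adjusted p = 0.00262). Further core calls included Ndufv2, an iron-sulfur subunit, at 0.41 (adjusted p = 0.0063), and Ndufv1, the flavin-binding subunit that oxidises NADH, at 0.34 (adjusted p = 0.0373). Ndufb8 had 36.8, 35.4, 32.2 and 31.4 CPM in ADF and 50.8, 44.4, 46.3 and 44.1 in ADF+ENZ, at 0.45 (SE 0.083, adjusted p = 0.0033). Ndufa7 had 70.7, 57.6, 50.2 and 54.0 CPM in ADF and 92.7, 77.9, 117 and 74.2 in ADF+ENZ, at 0.63 (SE 0.13, adjusted p = 0.00571), with the widest spread of these in ADF+ENZ. Ndufa6, an accessory subunit that holds an acyl carrier protein, differed by 0.40 (SE 0.094, adjusted p = 0.00991). Ndufa12 differed by 0.39 (adjusted p = 0.0158), Ndufb9 by 0.50 (adjusted p = 0.0165), Ndufa2 by 0.33 (adjusted p = 0.0205) and Ndufb3 by 0.34 (adjusted p = 0.0441). The ADF and ADF+ENZ ranges overlapped for Ndufb3 and Ndufb9, as they did for Uqcr10, Cox6b1 and Atp5g2 among the calls in the other complexes.

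In complex II, Sdhb had 53.6, 48.9, 45.0 and 40.1 CPM in ADF and 66.6, 66.0, 72.2 and 65.8 in ADF+ENZ, without overlap, at 0.53 (SE 0.091, adjusted p = 0.00262). The membrane anchor Sdhd differed by 0.30 (adjusted p = 0.0246). In complex III, Uqcrq had 40.1, 39.0, 36.6 and 35.2 CPM in ADF and 60.5, 53.2, 59.5 and 53.5 in ADF+ENZ. The lowest ADF+ENZ library was above the highest ADF library by more than the range of either group, and the log2 difference was 0.58 (SE 0.089, adjusted p = 0.00138), the smallest adjusted p of any member in this comparison. Cyc1 had 69.2, 69.2, 55.3 and 52.8 CPM in ADF and 92.7, 76.7, 88.0 and 86.0 in ADF+ENZ, at 0.48 (SE 0.10, adjusted p = 0.0075). Uqcrh differed by 0.36 (adjusted p = 0.0233), Uqcrc1, the other core protein, by 0.28 (adjusted p = 0.0217), Uqcr10 by 0.42 (adjusted p = 0.0394) and Uqcr11 by 0.32 (adjusted p = 0.0388).

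In complex IV, Cox7c had 55.6, 50.8, 46.8 and 45.3 CPM in ADF and 69.0, 67.2, 65.5 and 64.0 in ADF+ENZ, at 0.42 (SE 0.088, adjusted p = 0.00607). Cox4i1, the common isoform of subunit 4, had 83.9, 77.1, 75.4 and 71.0 CPM in ADF and 107, 88.9, 102 and 93.8 in ADF+ENZ, at 0.35 (SE 0.072, adjusted p = 0.00562). Cox6a1 differed by 0.41 (adjusted p = 0.0174), Cox7a2 by 0.36 (adjusted p = 0.0101), Cox7a2l by 0.38 (adjusted p = 0.014), Cox5b by 0.33 (adjusted p = 0.0271), Cox5a by 0.31 (adjusted p = 0.0418) and Cox6b1 by 0.26 (adjusted p = 0.0463). In complex V the peripheral stalk genes Atp5f1 (subunit b) and Atp5h (subunit d) were called. Atp5f1 had 146, 134, 119 and 117 CPM in ADF and 177, 159.6, 178 and 166 in ADF+ENZ, at 0.40 (SE 0.082, adjusted p = 0.0052), and Atp5h differed by 0.51 (SE 0.12, adjusted p = 0.0095). In the catalytic head and central stalk Atp5a1 differed by 0.44 (SE 0.10, adjusted p = 0.0101), Atp5b by 0.39 (SE 0.092, adjusted p = 0.0111) and Atp5d by 0.28 (adjusted p = 0.0488). Among membrane subunits Atp5k differed by 0.48 (adjusted p = 0.0164), Atp5g2 by 0.42 (adjusted p = 0.0233) and Atp5l, subunit g, by 0.33 (adjusted p = 0.0393).

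**Figure D3:**
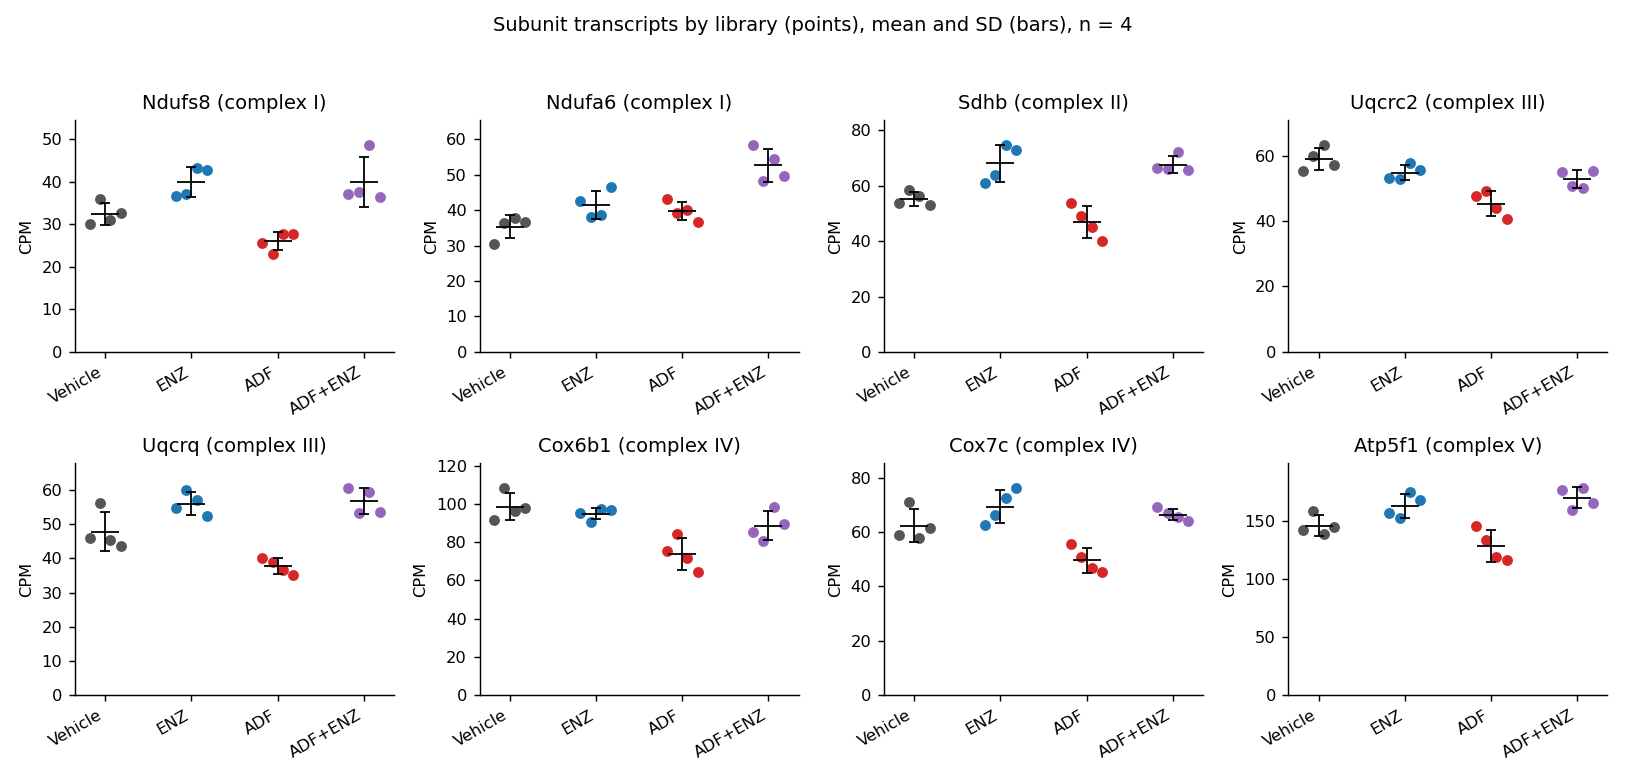
CPM of 8 members (y axes, from 0) in each library (points) by group, with the mean and SD of 4 libraries as black bars. In Uqcrq, Sdhb, Ndufs8, Cox7c and Atp5f1 the ADF+ENZ points lie above all ADF points, whereas Cox6b1 overlaps between these groups.

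Of the 35 calls, 16 were present in all 8 fits without 1 ADF or ADF+ENZ library, among them Ndufa6, Ndufa7, Ndufb8, Ndufs8, Ndufv2, Sdhb, Cyc1, Uqcrq, Cox4i1, Cox7a2, Cox7c, Atp5a1, Atp5b, Atp5f1 and Atp5h. The count fell to 18 without ADF replicate 4 and to 17 without ADF+ENZ replicate 3, the libraries at either end of the no-feature range. Without both, a setting chosen after the data were seen, 3 members were called, namely Ndufs8 (log2 0.54, adjusted p = 0.0292), Uqcrq (0.53, adjusted p = 0.0299) and Sdhb (0.43, adjusted p = 0.0493). The median difference was then 0.22 with 75 of 81 positive, and 95 of 19206 genes tested were called higher. With the no-feature percentage as a covariate no member was called, 43 of 81 differences were positive and the median was 0.02, and over all genes nothing was called. ADF+ENZ and ADF did not overlap in this percentage, and its effect and that of enzalutamide during fasting cannot be told apart.

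The promoter elements may be read beside these values. In ADF+ENZ against ADF, 8 of the 10 members with the NRF1 core were called, with a median of 0.37, and 20 of the 56 tested members with a window lacking it, with a median of 0.28. Ndufa6 and Sdhb, printed above, are among the 8. With the YY1 core 2 of 10 were called (median 0.30) and without it 26 of 56 (median 0.29). With the ETS/GABP core 3 of 5 were called (median 0.32), Uqcrh among them, and without it 25 of 61 (median 0.28). Over all genes tested, 8.72% were called higher in this comparison. In ADF against Vehicle none of the 10 members with the NRF1 core was called and 9 of 56 without it. These counts are descriptions with no test.

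Both treatments together against neither, ADF+ENZ against Vehicle, gave 9 members higher and 1 lower, beside 5.97% higher and 6.53% lower over all genes tested. Differences were positive in 56 of 81, the median was 0.12 and 25 had an unadjusted p under 0.05. Ndufa6 had 30.5, 36.2, 37.7 and 36.7 CPM in Vehicle, 42.7, 37.9, 38.6 and 46.5 in ENZ, 43.0, 39.1, 40.1 and 36.6 with ADF and 58.4, 48.2, 54.5 and 49.5 with ADF+ENZ. Only the ADF+ENZ libraries stood clear of the other 12, and the log2 difference from Vehicle was 0.58 (SE 0.094, adjusted p = 0.000885). Ndufa2, an accessory subunit with a thioredoxin fold, had 28.9, 28.2, 29.6 and 24.5 CPM in Vehicle and 39.9, 39.1, 40.5 and 35.2 in ADF+ENZ, all higher in the latter, at 0.47 (SE 0.090, adjusted p = 0.00278). The differences were 0.45 (adjusted p = 0.029) for Ndufa7, 0.45 (adjusted p = 0.0371) for Ndufa4, 0.34 (adjusted p = 0.0154) for Ndufv2, 0.29 (adjusted p = 0.0426) for Sdhb and 0.35 (adjusted p = 0.035) for Cyc1. Cox6c, a small subunit of complex IV, differed by 0.37 (adjusted p = 0.0253) and Atp5g2 by 0.41 (adjusted p = 0.0297), and both overlapped between groups. Of the other cells' markers, Adgre1 and Ptprc (macrophage) and Krt19 were lower and Pdgfra (fibroblast) higher, and their part in the result was not tested.

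Among the members of that comparison that were not called, Sdha differed by -0.20 (adjusted p = 0.142), Uqcr10 by 0.25 (adjusted p = 0.239), Cox4i2 by -0.36 (adjusted p = 0.325) and Atp5s by -0.36 (adjusted p = 0.183). Ndufa2, Ndufa6 and Ndufa4l2 were called in each fit without 1 Vehicle or ADF+ENZ library. The same 3 were called without ADF replicate 4 and ADF+ENZ replicate 3 together, and they were among 5 called with the no-feature percentage as covariate. The count of 10 fell to 3 without Vehicle replicate 1 or ADF+ENZ replicate 3, to 4 without Vehicle replicate 4, to 5 without ADF+ENZ replicate 1 and to 6 without Vehicle replicate 3.

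Fasting on top of enzalutamide, ADF+ENZ against ENZ, gave no member past the threshold by edgeR's quasi-likelihood test, where 1.09% of all genes passed in either direction. Differences were split 41 positive to 40 negative with a median of 0.01, and 10 members had an unadjusted p under 0.05. DESeq2 called Ndufa6 (log2 0.35, adjusted p = 0.0230) and Cox4i2 (0.95, adjusted p = 0.0276), and limma-voom called Ndufa6 alone. By edgeR Ndufa6 differed by 0.34 (adjusted p = 0.0763), with the ranges not overlapping, and Ndufa13 by -0.36 (adjusted p = 0.158). The largest differences elsewhere were 0.31 (adjusted p = 0.277) for Uqcr10 and -0.16 (adjusted p = 0.487) for Uqcr11 in complex III, 0.95 (adjusted p = 0.0678) for Cox4i2 and -0.27 (adjusted p = 0.2) for Cox5a in IV, and -0.32 (adjusted p = 0.395) for Atp5s and 0.25 (adjusted p = 0.308) for Atp5g2 in V. In complex II no gene exceeded -0.04 for Sdhc and 0.03 for Sdha in size.

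Whether fasting acted differently with and without enzalutamide was tested by the interaction, the ADF+ENZ to ENZ difference minus the ADF to Vehicle difference. No member passed by edgeR, where 3.10% of all genes did, although 68 of 81 values were positive with a median of 0.22, and 27 had an unadjusted p under 0.05. With the no-feature percentage as a covariate, 25 values were positive and 56 negative, the median was -0.06 and 2 had an unadjusted p under 0.05. DESeq2 called 5 members, among them Atp5a1, Cox4i2, Atp5b and Uqcrc2, and limma-voom called Cox4i2. The edgeR values were 1.24 (adjusted p = 0.0508) for Cox4i2, 0.49 (adjusted p = 0.0713) for Atp5a1, 0.37 (adjusted p = 0.109) for Atp5b and 0.36 (adjusted p = 0.11) for Uqcrq. They were 1.42 (adjusted p = 0.166) for Ndufa4l2, 0.50 (adjusted p = 0.124) for Ndufb9, 0.31 (adjusted p = 0.146) for Sdhc, 0.30 (adjusted p = 0.18) for Sdha, 0.48 (adjusted p = 0.156) for Uqcr10 and 0.38 (adjusted p = 0.12) for Cox7a2l.

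**Figure D4:**
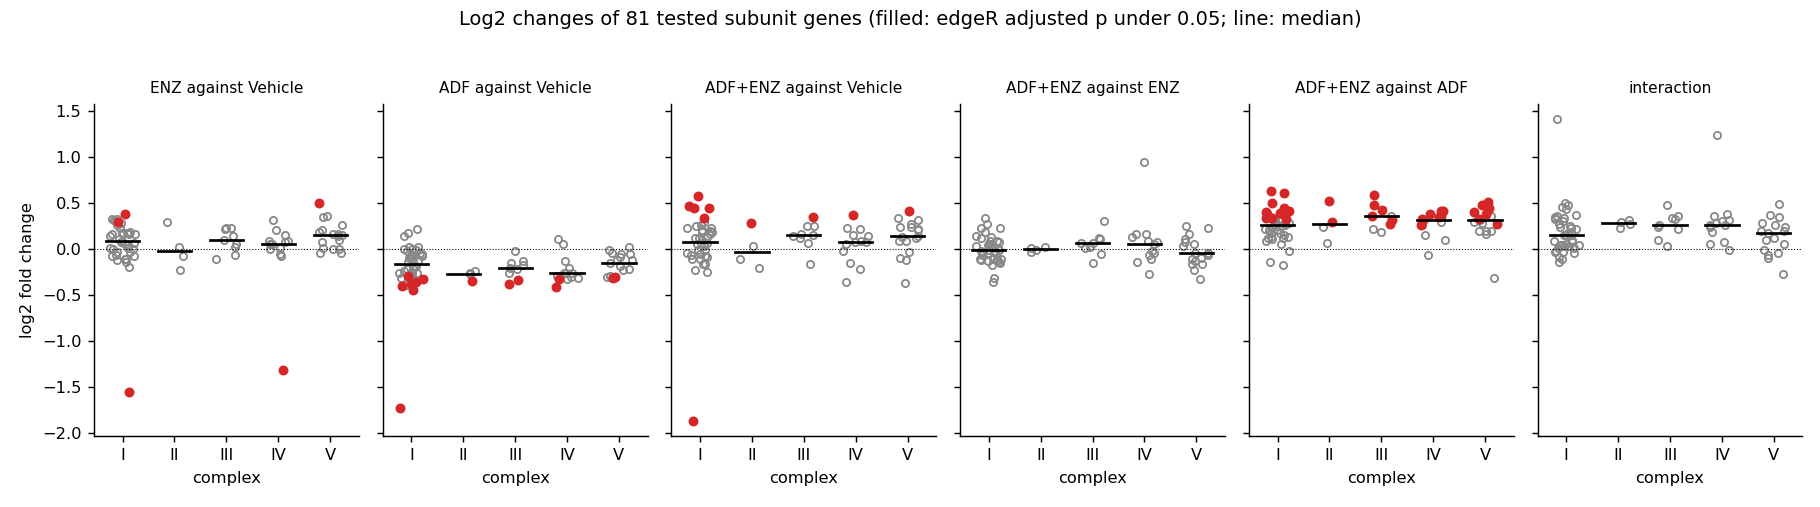
Log2 fold change (y axis) of each of the 81 tested members by complex (x axis) in the 5 comparisons and the interaction, with red filled points for adjusted p under 0.05 by edgeR and black lines for complex medians. The medians lie below 0 in ADF against Vehicle (-0.15 to -0.27) and above 0 in ADF+ENZ against ADF (0.26 to 0.36), and Ndufa4l2 and Cox4i2 stand apart from the rest.

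The largest changes were in 2 alternative isoforms, Ndufa4l2 and Cox4i2. Ndufa4l2, induced by hypoxia and able to take the place of Ndufa4, had 22.4, 15.3, 38.8 and 16.9 CPM in Vehicle, 8.86, 12.1, 6.37 and 4.86 in ENZ, 5.36, 5.57, 10.9 and 6.31 with ADF and 7.52, 3.12, 9.64 and 5.86 with ADF+ENZ. All 12 treated libraries lay below all 4 Vehicle libraries, and the treated groups overlapped each other. The log2 changes from Vehicle were -1.55 (SE 0.38, adjusted p = 0.0317) in ENZ, -1.73 (SE 0.39, adjusted p = 0.0168) in ADF and -1.86 (SE 0.39, adjusted p = 0.0082) in ADF+ENZ, 3 comparisons that share the Vehicle libraries. The ENZ call was lost without Vehicle replicate 3, the library with the highest level, and without ENZ replicate 3 or 4, and the ADF call without ADF replicate 4. Per length Ndufa4l2 made up 31.4% ± 11.8 (SD, n = 4) of the sum of Ndufa4l2 and Ndufa4 in Vehicle, 11.5% ± 4.71 in ENZ, 11.2% ± 4.71 with ADF and 8.53% ± 2.72 with ADF+ENZ. Ndufa4, which the symbol places in complex I and which is now regarded as a complex IV subunit, had 24.1 ± 3.57, 30.2 ± 3.71, 28.0 ± 5.25 and 33.0 ± 3.97 CPM and was called in ADF+ENZ against Vehicle.

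Cox4i2, the subunit 4 isoform known from lung and oxygen-sensing cells, had 3.80, 2.63, 2.88 and 2.87 CPM in Vehicle and 1.43, 1.30, 0.961 and 1.25 in ENZ. Every ENZ library was below every Vehicle, ADF and ADF+ENZ library, and the change was -1.31 (SE 0.24, adjusted p = 0.00351). In ADF the level was 3.04, 2.07, 2.60 and 2.29 CPM and in ADF+ENZ 3.43, 2.12, 2.52 and 1.62, both overlapping with Vehicle, at -0.29 (adjusted p = 0.443) and -0.36 (adjusted p = 0.325). Its share of Cox4i2 and Cox4i1 per length was 3.40% ± 0.529 (SD, n = 4) in Vehicle, 1.32% ± 0.204 in ENZ, 3.22% ± 0.389 with ADF and 2.44% ± 0.593 with ADF+ENZ, from 562 Cox4i2 counts in all. Both paralogues are known from pericytes and vascular smooth muscle. Of 10 markers of those cells, all tested, none was called in any of the 5 comparisons or the interaction, and their summed level was 567 to 719 CPM in Vehicle, 609.5 to 765 in ENZ, 616 to 786 in ADF and 569 to 829 in ADF+ENZ. Single markers ran from Pdgfrb, with a mean of 309 CPM in Vehicle, to Higd1b, which did not exceed 1.57 CPM in any library. Rgs5 averaged 66.8 CPM and Notch3 27.6 in Vehicle, against 48.1 and 19.8 in ENZ. In ENZ against Vehicle 4 of the 10 log2 changes were positive and 6 negative, with a median of -0.05. The part of these cells in the 2 isoform changes was not tested.

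**Figure D5:**
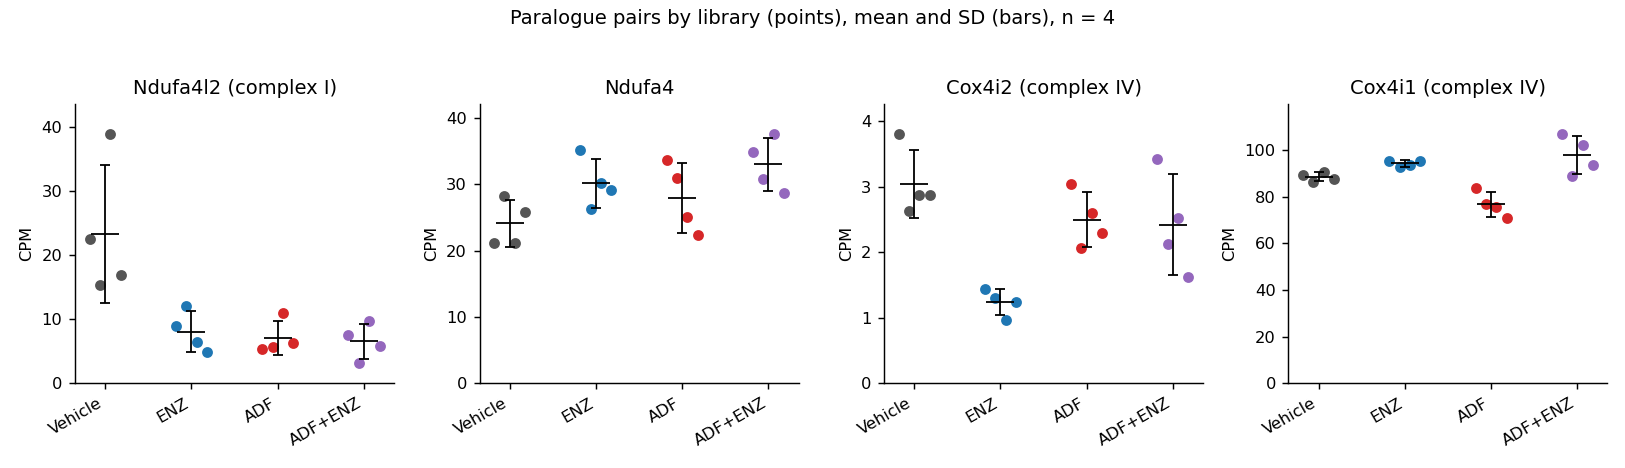
CPM (y axes, from 0) of Ndufa4l2, Ndufa4, Cox4i2 and Cox4i1 in each library (points) by group, with the mean and SD of 4 libraries as black bars. Ndufa4l2 is highest in the 4 Vehicle libraries and Cox4i2 lowest in the 4 ENZ libraries (0.961 to 1.43 CPM).

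Among the other isoform pairs, Cox7a1, the heart and muscle isoform, made up 20.9% ± 2.14 (SD, n = 4) of Cox7a1 and Cox7a2 per length in Vehicle, 19.5% ± 3.97 in ENZ, 18.8% ± 2.76 with ADF and 16.2% ± 1.84 with ADF+ENZ, and it was not called in any comparison. Cox6a2, Cox6b2, Cox7b2 and Cox8b averaged at most 0.435% of their pairs in any group. Cox8a differed by -0.32 (adjusted p = 0.0631) in ADF against Vehicle and Cox7b by 0.06 (adjusted p = 0.748). The 3 genes for the identical mature c subunit, whose ring turns in the membrane, were Atp5g1 with 36.6 ± 3.03 CPM in Vehicle, Atp5g2 with 66.8 ± 5.50 and Atp5g3 with 65.9 ± 4.58. In ADF+ENZ they had 43.4 ± 6.32, 88.9 ± 16.1 and 70.0 ± 9.41 CPM, and only Atp5g2 was called there, against Vehicle and against ADF. The ATP synthase inhibitor, listed as Atpif1, is no member by the rule and differed by 0.52 (adjusted p = 0.0215) in ADF+ENZ against ADF.

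Transcripts of 23 members share over 10% of their 75-base windows with other genes, so reads could have been split, lost or gained. Reads mapped to several places averaged 7.44% of reads in Vehicle, 7.89% in ENZ, 4.70% with ADF and 7.09% with ADF+ENZ. They ran from 4.10% to 5.03% in the ADF libraries and from 6.51% to 7.96% in the others, without overlap. Reads ambiguous between genes, at 2.71% to 3.02% with ADF and 3.44% to 5.26% elsewhere, did not overlap either. Neither share can be told apart from fasting without enzalutamide here. Medians were alike with and without such sharing, with -0.23 and -0.20 for ADF against Vehicle, then 0.30 and 0.29 for ADF+ENZ against ADF. The values of Atp5g2, Atp5l, Cox7c, Atp5g1, Ndufa12, Ndufa13, Atp5h, Ndufb4, Atp5f1, Uqcrc2, Cox5a, Cox5b, Ndufb9, Cox7a2l and Cox6c are uncertain in this respect. For 12 members over 10% of exon bases overlap another gene, and whether the counting used strand was unstated in the labels.

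Genes that build or serve the complexes were examined as lists, to be read beside the shares of all genes called. For ADF+ENZ against ADF those were 8.72% higher and 7.54% lower. For ADF against Vehicle they were 4.05% higher and 4.96% lower, while ADF+ENZ against Vehicle had 5.97% higher and 6.53% lower. The counts for assembly factors, regulators and electron carriers lie near these shares. With the no-feature covariate no gene of the table was called in ADF+ENZ against ADF or in the interaction, and 6 were in ADF against Vehicle, so the calls below in the first 2 do not hold with it. Of 13 subunits encoded by mitochondrial DNA, 10 (76.9%) were higher in ADF+ENZ than in ADF (median 0.61), among them mt-Co3 at 0.57 (adjusted p = 0.00376), mt-Co2 at 0.59 (adjusted p = 0.00466), mt-Co1 at 0.57 (adjusted p = 0.00551), mt-Nd5 at 0.69 (adjusted p = 0.00791), mt-Nd4 at 0.56 (adjusted p = 0.0141) and mt-Atp6 at 0.66 (adjusted p = 0.0145). None was called in ADF against Vehicle (median -0.13, 10 of 13 negative), where 2 had an unadjusted p under 0.05. Against Vehicle 7 were higher in ADF+ENZ, with mt-Co3 at 0.59 (adjusted p = 0.00218) and mt-Atp6 at 0.78 (adjusted p = 0.00534). In ENZ mt-Nd3 was the single call, at 0.95 (adjusted p = 0.0317), and in ADF+ENZ against ENZ mt-Co3, at 0.49 (adjusted p = 0.0356). Their sum was 12279 ± 1549 CPM (SD, n = 4) in Vehicle, 13452 ± 1073 in ENZ, 10667 ± 788 with ADF and 15828 ± 2403 with ADF+ENZ.

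Of 48 tested assembly factors, 3 (6.25%) fell in ADF against Vehicle and none rose, a share near that of all genes. Higd1a, a hypoxia-induced protein of complex IV and the supercomplexes, fell, at -1.16 (SE 0.16, adjusted p = 0.000314), as did Uqcc2, needed for complex III, at -0.53 (SE 0.093, adjusted p = 0.0022) and Timmdc1, needed for complex I, at -0.40 (adjusted p = 0.0269). Higd1a was also lower than in Vehicle in ENZ, at -0.52 (adjusted p = 0.0488), and in ADF+ENZ, at -0.87 (adjusted p = 0.00156), and it had an interaction value of 0.81 (adjusted p = 0.0488). In ADF+ENZ against ADF 6 of the 48 were higher and none lower, beside 8.72% of all genes higher. They were Pet100 at 0.72 (adjusted p = 0.00311), Uqcc2 at 0.42 (adjusted p = 0.0079), Cox10 at 0.46 (adjusted p = 0.0241), Sco1 at 0.45 (adjusted p = 0.0283), Uqcc3 at 0.45 (adjusted p = 0.0373) and Cox14 at 0.32 (adjusted p = 0.0435). Pet100, which serves complex IV, was also higher in ENZ than in Vehicle, at 0.70 (adjusted p = 0.00361). In ADF+ENZ against Vehicle 4 were higher, Ttc19 at 0.31 (adjusted p = 0.0192), Cox10 at 0.48 (adjusted p = 0.0198), Pet100 at 0.44 (adjusted p = 0.032) and Cox18 at 0.44 (adjusted p = 0.0377).

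Of 29 tested genes of protein import and inner membrane organisation, 12 (41.4%) were higher in ADF+ENZ than in ADF and none lower, beside 8.72% of all genes higher. Tomm20, an import receptor of the outer membrane, differed by 0.49 (adjusted p = 0.00154), Timm17a, of the inner membrane translocase, by 0.34 (adjusted p = 0.00734), the ADP/ATP carrier Slc25a4 by 0.37 (adjusted p = 0.00789), Tomm5 by 0.48 (adjusted p = 0.0108), the prohibitin Phb by 0.40 (adjusted p = 0.0123) and Immt, of the cristae junctions, by 0.34 (adjusted p = 0.0127). In ADF against Vehicle 4 fell, the channels Vdac2 (-0.38, adjusted p = 0.00586) and Vdac1 (-0.37, adjusted p = 0.024), Tomm7 (-0.33, adjusted p = 0.0217) and Chchd3 (-0.37, adjusted p = 0.0226). Tomm20 and Tomm5 were higher in ADF+ENZ than in Vehicle, at 0.38 (adjusted p = 0.0037) and 0.48 (adjusted p = 0.00895). Tomm7 was higher in ENZ than in Vehicle, at 0.36 (adjusted p = 0.0158). In ADF+ENZ against ENZ Timm17a was higher (0.31, adjusted p = 0.0432) and Tomm7 lower (-0.36, adjusted p = 0.0426). The interaction passed for Vdac2 (0.54, adjusted p = 0.0154) and Timm17a (0.48, adjusted p = 0.0235).

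Of 16 tested regulators of mitochondrial gene expression, none was called in ENZ or ADF against Vehicle, where 3 and 2 had an unadjusted p under 0.05. Twnk, the mitochondrial DNA helicase, was higher in ADF+ENZ than in ADF at 0.39 (adjusted p = 0.0179), and Tfb1m and the polymerase Polg were lower in ADF+ENZ than in Vehicle at -0.80 (adjusted p = 0.00806) and -0.26 (adjusted p = 0.0473). Of 17 electron carriers and genes of quinone synthesis, none was called in ENZ or ADF against Vehicle, where 2 and 4 had an unadjusted p under 0.05. Gpd2, which feeds electrons from glycerol 3-phosphate to quinone, was higher in ADF+ENZ than in ADF (0.45, adjusted p = 0.0152), Vehicle (0.37, adjusted p = 0.04) and ENZ (0.52, adjusted p = 0.0371). Cytochrome c, Cycs, was higher in ADF+ENZ than in ADF (0.37, adjusted p = 0.0488) and Pdss1 lower (-0.36, adjusted p = 0.041). Against Vehicle Etfb was higher in ADF+ENZ (1.05, adjusted p = 0.0367) and Coq2 lower (-0.36, adjusted p = 0.0239).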

How the data were processed

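The authors deposited raw counts per Ensembl gene for 16 tumour libraries. Tools listed in the submitters' processing notes are HISAT2, featureCounts, Trim Galore and DESeq2, with builds mm39 and GRCh38 and no version or role. The 5 summary rows (reads in no feature, ambiguous, unaligned and the like) were left out of library sizes. Symbols, classes and lengths came from GENCODE M21 and promoter windows from RefSeq (GRCm38.p6). One model over all libraries was fitted with edgeR 4.0.16 (R 4.3.3): filterByExpr (minimum count 10, total 15), TMM scaling, robust quasi-likelihood tests, and Benjamini-Hochberg adjustment over the 18946 genes tested in each comparison, with a threshold of 0.05 for a call. The 4 groups gave 5 comparisons and 1 interaction. The script recovered, by the sign of the median, changes put into simulated ADF counts. Those changes were larger than the changes of all members except Ndufa4l2 and Cox4i2. Smaller ones were not tried. Alternatives used DESeq2 1.42.0, limma-voom (limma 3.58.1), other filters, covariates and left-out libraries. Levels are TMM-scaled CPM. Named are called members (at most 30 by adjusted p, with further calls given where a complex is described), the 2 largest changes per complex with a mean of at least 1 CPM, the 2 highest per length, untested members, isoform pairs and, from other lists, at most 6 calls. Some genes that this rule names are not reported here. Members and lists were chosen with earlier results of these data known.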

Additional observations from a re-analysis of the deposited data

Results flagged for a closer look

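Of 216 groups of 4 libraries 11 held 1 library set apart from the other 3 by Dixon's criterion, and chance flags about 1 in 20 groups. In Vehicle replicate 2, Cyc1 stood at 73.2 CPM (others 64.8 to 66.0), Atp5h at 78.9 (62.9 to 65.4) and the complex III sum at 501 (425 to 434). Cox5a was 29.9 CPM in Vehicle replicate 1 (others 24.6 to 25.4). In ADF replicate 4, the library with most reads in no feature, Cox5a was 18.1 CPM (others 23.0 to 23.5) and Atp5k 11.2 (13.6 to 13.99). Among the other ADF libraries, Ndufa4l2 was 10.9 CPM in replicate 3 (others 5.36 to 6.31), Ndufv1 was 61.6 in replicate 1 (51.7 to 52.7) and Atp5l was 18.3 in replicate 2 (15.03 to 15.5). In ADF+ENZ replicate 3, Ndufs8 was 48.6 CPM (others 36.3 to 37.5) and Sdhb 72.2 (65.8 to 66.6).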

How the results depend on the processing

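Of 64 member calls, all were called in the same direction by DESeq2, 63 with DESeq2 size factors in edgeR, 62 by limma-voom, 62 with at least 1 CPM in 4 libraries, 52 with no filter, 51 among protein-coding genes alone, 51 with length and GC trends removed, 51 with the skeletal muscle level as a covariate and 41 with only the groups compared. With the no-feature percentage as covariate 10 calls were kept and 9 reversed. Of 59 calls outside ENZ against Vehicle, 8 were kept without ADF replicate 4 and ADF+ENZ replicate 3. The cause was not tested. For ENZ against Vehicle (5 called), the count was 8 by DESeq2, 12 by limma-voom, 2 with no filter, 10 among protein-coding genes, 3 with length and GC trends removed, 8 with the no-feature covariate, 2 with the muscle covariate, 3 with only the groups compared, and 1 to 7 without 1 library. For ADF against Vehicle (14), it was 24 by DESeq2, 24 by limma-voom, 9 among protein-coding genes, 0 with the no-feature covariate, 8 with only the groups compared, 2 to 18 without 1 library, and 2 without ADF replicate 4 and ADF+ENZ replicate 3. For ADF+ENZ against Vehicle (10), it was 5 with the no-feature covariate, 3 without those 2 libraries and 3 to 13 without 1 library. For ADF+ENZ against ENZ (0), it was 2 by DESeq2, 1 by limma-voom and 0 to 1 without 1 library. For ADF+ENZ against ADF (35), it was 0 with the no-feature covariate, 3 without those 2 libraries and 17 to 37 without 1 library. For the interaction (0), it was 1 with DESeq2 size factors, 5 by DESeq2, 1 by limma-voom, 1 with length and GC trends removed, 3 with the muscle covariate and 0 to 2 without 1 library.

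With the no-feature covariate, positive and negative members numbered 43 and 38 in ADF against Vehicle (9 and 72 without it), 43 and 38 for ADF+ENZ against ADF (76 and 5), 26 and 55 for ADF+ENZ against ENZ (41 and 40), then 25 and 56 for the interaction (68 and 13). Reversals of single members were listed only for the calls and the 2 largest changes per complex in each comparison. Among these, the log2 change reversed in ADF against Vehicle for Atp5a1 (0.0128). In ADF+ENZ against ADF it reversed for Ndufa7 (-0.0032), Ndufv1 (-0.1492), Sdhd (-0.062), Uqcr10 (-0.2441), Cox5b (-0.0495), Cox6a1 (-0.0121), Cox6b1 (-0.109) and Atp5g2 (-0.1356), in ADF+ENZ against ENZ for Sdha (-0.0382), and in the interaction for Sdha (-0.0043) and Uqcr10 (-0.1962). Without 1 library in ADF+ENZ against ENZ, Sdha ran from -0.0228 to 0.0963 and Sdhc from -0.0688 to 0.0053. Sdha was -0.0228 without ENZ replicate 1, -0.0124 without ADF+ENZ replicate 1 and -0.0036 without ADF+ENZ replicate 3, and Sdhc was 0.0053 without ADF+ENZ replicate 4. No paired analysis was possible because the labels give no mouse, block or pairing for the tumours. The 6 members not tested had 0 to 81 counts over all libraries, too few to show a difference.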

Other observations

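Symbols outside the rule but tied to the complexes gave further values, chosen after they were seen. Usmg5, which encodes a small ATP synthase protein under an older name, had 41.1 ± 3.65 CPM (SD, n = 4) in Vehicle, 54.2 ± 3.16 in ENZ, 36.0 ± 4.78 with ADF and 61.3 ± 11.3 with ADF+ENZ. It was higher in ADF+ENZ than in ADF, at 0.77 (SE 0.12, adjusted p = 0.00151) by edgeR, and than in Vehicle, at 0.57 (SE 0.12, adjusted p = 0.00458). Ndufb1-ps, annotated here as a non-coding RNA from a bidirectional promoter, had 8998 counts over all libraries, and fell in ADF against Vehicle, at -0.46 (SE 0.13, adjusted p = 0.0346). The processed pseudogene Atp5l2-ps was higher in ADF+ENZ than in ADF, at 0.91 (SE 0.26, adjusted p = 0.0251), on 367 counts in all, and reads from Atp5l could be counted there.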
